A study of Mus musculus with 5 samples.

Results

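The proteasome genes measured in whole hearts of mouse embryos are 80 probe sets of 44 genes, of 20380 probe sets and 12393 genes with a single gene symbol on the array. They were chosen by name alone, as symbols that start with Psma, Psmb, Psmc, Psmd, Psme or Psmf followed by a number. That rule takes 42 genes of the proteasome and its regulators, and 2 genes named after a subunit they bind, Psmc3ip and Psme3ip1. Psme2, the partner of Psme1, shares its only probe set with a second symbol and is not analysed here. The study measured 5 wild-type hearts at E12.5, one per Affymetrix mouse 430A array. The embryos came from 129P2/OlaHsd mice backcrossed to C57BL/6 for 2 generations. There is 1 group and no treatment, and the labels do not say whether hearts shared a litter. The hearts carry the numbers 6 to 10 in the labels. Where 5 values stand in a row they belong to hearts 6, 7, 8, 9 and 10 in that order.

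The proteasome is the protease that removes proteins tagged with ubiquitin. Its barrel-shaped core has outer rings of alpha subunits, which hold the gate, and inner rings of beta subunits, of which Psmb5, Psmb6 and Psmb7 carry the active sites. A regulatory cap of ATPases and non-ATPase subunits binds ubiquitin, unfolds the substrate and feeds it into the core. In immune cells and after interferon, the beta subunits Psmb8, Psmb9 and Psmb10 take the places of Psmb5, Psmb6 and Psmb7 and form the immunoproteasome, whose peptides are presented on MHC class I molecules. Dividing and growing cells such as those of the embryonic heart depend on the core and cap for the turnover of cyclins and other short-lived proteins.

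Levels are given as log2(intensity + 16), and differences are in log2 units on that scale. Intensities of different probe sets are not comparable, so genes are compared only with the background and with themselves in other hearts. The background of an array is the 95th percentile of 72 genes of tissues unrelated to the heart, and lay between 5.26 and 5.59. For counts over probe sets it is the same percentile of the 102 probe sets of these genes, between 5.11 and 5.44. Detected means above the background in all 5 hearts. A gene is represented by its probe set of highest mean. Heart 7 stood apart from the others, with a 3' to 5' signal ratio of 5.69 for the Gapdh control against 2.50 to 3.55, and a median correlation across genes of 0.969 with the others against 0.976 to 0.980. Its actin ratio of 4.27 lay within the 3.20 to 4.48 of the others. Heart 8 had the highest actin ratio, the highest background and the fewest genes above it, 6787 against 7118 to 7367. Of 12 cardiomyocyte genes that mark the labelled tissue 11 were detected, among them Tnnt2 (13.00 ± 0.15), Myh6 (11.97 ± 0.14) and Myh7 (12.69 ± 0.21; SD, n = 5). In whole hearts, fewer cells of a type and less RNA per cell cannot be told apart.

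Of the 44 genes, 41 were detected, or 93.2%, against 50.7% of all genes. The 3 that were not were Psmb8 and Psmb9 of the immunoproteasome and Psma8, an alpha subunit known from male germ cells. All 7 common alpha subunits, all 7 beta subunits of the standard core and all 6 ATPases were detected. So were 3 base and 8 lid subunits with a Psmd symbol, the 3 cap chaperones and 4 activators and inhibitors. Over probe sets the count was 62 of 80, or 77.5%, against 46.7% of all probe sets. The same 3 genes were not detected without heart 7, and Psmd9 and Psmf1 joined them only when background was set at the 99th percentile, which left 39 genes.

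**Figure D1:**
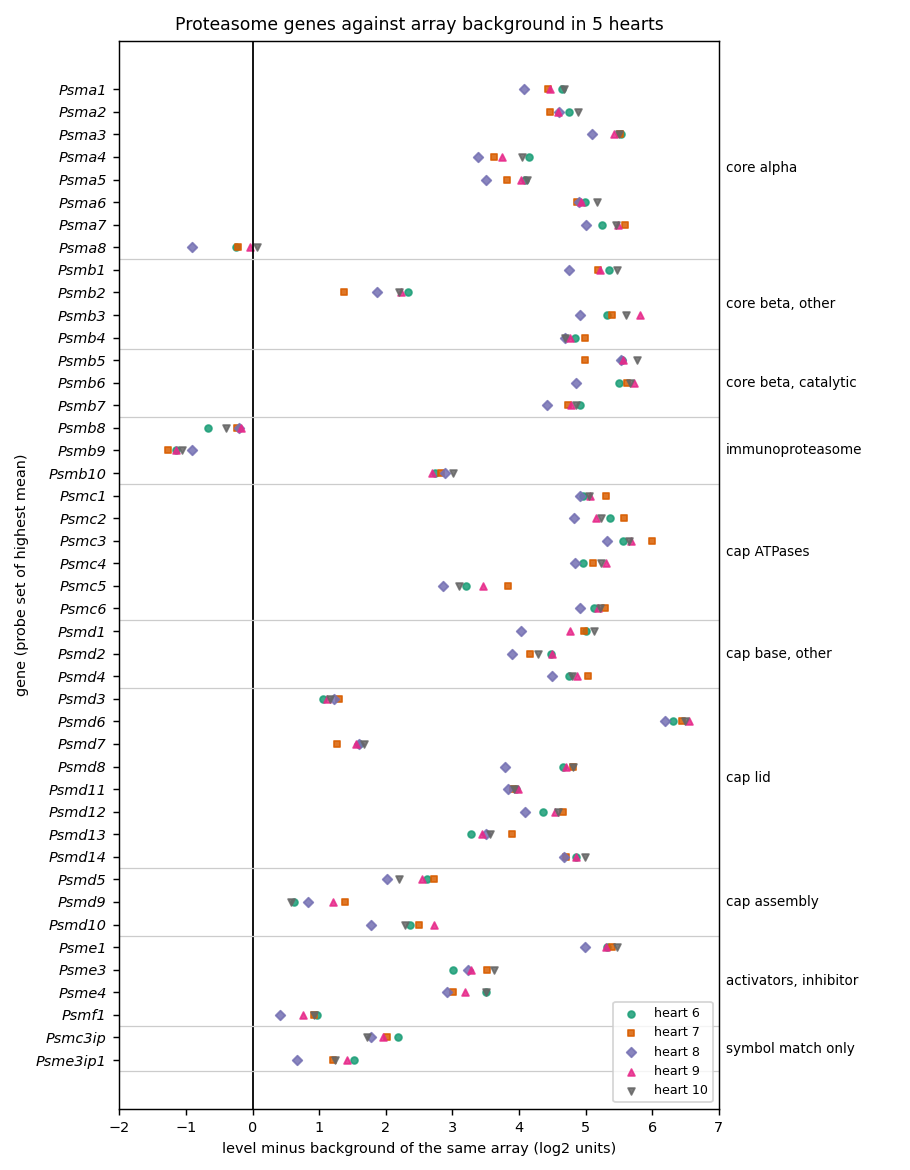
Level of each of the 44 genes minus the background of the same array, in log2 units, with 1 point per heart and genes grouped by their place in the proteasome; the vertical line at 0 is the background. Psmb8 and Psmb9 lie left of the line in all 5 hearts and Psma8 crosses it in heart 10 alone, while every other gene lies right of it in all hearts, by at least 0.41.

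The subunits with an active site differed in whether they rose above background. To show the genes behind that contrast, the 250 bases before the start of transcription are given here for the 2 standard and 3 immunoproteasome subunits that matched the RefSeq promoter table by symbol (build GRCm38.p6), 5' to 3' on the gene's strand. Capitals mark matches on either strand to a CCAAT box (CCAAT), an antioxidant response core (TGACNNNGC), an interferon-stimulated core (GAAA, then NN, then GAAA) or a gamma-activated core (TTCNNNGAA).
Psmb5, chr14:54617996-54618245, minus strand: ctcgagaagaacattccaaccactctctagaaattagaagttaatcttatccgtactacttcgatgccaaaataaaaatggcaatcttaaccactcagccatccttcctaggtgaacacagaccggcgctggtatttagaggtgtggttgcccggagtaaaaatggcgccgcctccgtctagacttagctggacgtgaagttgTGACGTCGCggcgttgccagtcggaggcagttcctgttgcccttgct
Psmb6, chr11:70525107-70525356, plus strand: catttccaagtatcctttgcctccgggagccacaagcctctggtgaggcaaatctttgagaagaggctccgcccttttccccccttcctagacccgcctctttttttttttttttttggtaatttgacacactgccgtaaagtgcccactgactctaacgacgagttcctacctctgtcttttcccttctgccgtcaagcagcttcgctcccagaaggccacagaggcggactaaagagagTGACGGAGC
Psmb8, chr17:34197945-34198194, plus strand: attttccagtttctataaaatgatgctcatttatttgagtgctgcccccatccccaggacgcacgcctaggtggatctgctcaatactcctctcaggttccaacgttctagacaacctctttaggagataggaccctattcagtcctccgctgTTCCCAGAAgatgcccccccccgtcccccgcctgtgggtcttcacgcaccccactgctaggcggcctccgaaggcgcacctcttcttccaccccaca
Psmb9, chr17:34187331-34187580, minus strand: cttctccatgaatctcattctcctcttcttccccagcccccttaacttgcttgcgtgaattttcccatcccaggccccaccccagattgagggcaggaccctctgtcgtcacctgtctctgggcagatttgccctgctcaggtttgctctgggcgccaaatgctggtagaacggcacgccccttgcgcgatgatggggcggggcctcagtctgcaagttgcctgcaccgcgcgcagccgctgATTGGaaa
Psmb10, chr8:105938393-105938642, minus strand: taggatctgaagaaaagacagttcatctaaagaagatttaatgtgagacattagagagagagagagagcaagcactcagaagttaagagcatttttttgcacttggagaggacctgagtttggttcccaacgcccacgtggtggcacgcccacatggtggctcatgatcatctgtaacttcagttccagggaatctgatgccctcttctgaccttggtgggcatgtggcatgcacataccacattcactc
Psmb5 and Psmb6 each held 1 antioxidant core, Psmb8 held 1 gamma-activated core, Psmb9 held 1 CCAAT box and Psmb10 held no match. No matches overlapped in these 5 windows. Among 37 windows of 35 proteasome genes, 5 held the antioxidant core (13.5%, against 10.2% of 32851 windows of all genes) and 13 a CCAAT box (35.1% against 33.8%). The interferon-stimulated core was in 3 (8.11% against 2.98%), those of Psmb3, Psmd4 and Psmd9, and the gamma-activated core in 1 (2.70% against 7.02%). A GC box (GGGCGG), not marked above, was in 20 (54.1% against 32.7%). These are counts of letters in a window, not of bound sites. Psmb9 and Psmb8 are neighbours of the peptide transporter genes Tap1 and Tap2, and the starts of Psmb9 and Tap1 lie head to head with 225 bases between them, so most of the Psmb9 window is also upstream of Tap1.

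The standard active-site subunits gave signal far above background in every heart. Psmb5, with the chymotrypsin-like site, had levels of 10.84, 10.40, 11.12, 10.88 and 11.02. Psmb6, with the caspase-like site, had 10.79, 11.03, 10.45, 11.04 and 10.93. Heart 7 was lowest for Psmb5 and heart 8 lowest for Psmb6, so this pair did not share an order of hearts. Psmb7, with the trypsin-like site, had 10.22, 10.14, 10.01, 10.09 and 10.11, the narrowest of the 3, with an SD of 0.074 and a coefficient of variation of 5.23% in intensity. The SD was 0.28 for Psmb5 and 0.24 for Psmb6 (n = 5 each). The smallest margin over background of the 3 genes in any heart was 4.42.

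The immunoproteasome subunits did not appear together. Psmb10, the inducible partner of Psmb7, had levels of 8.04, 8.24, 8.48, 8.01 and 8.26, all at least 2.69 above background. Psmb8, the partner of Psmb5, had 4.62, 5.17, 5.39, 5.14 and 4.85 and was below background in every heart, by 0.18 to 0.68. Psmb9, the partner of Psmb6, had 4.15, 4.13, 4.68, 4.17 and 4.19, which is 0.91 to 1.28 below background. Of all genes, 34.8% were above background in no heart, as these 2 genes were. Each rests on a single probe set, and a gene below background may still be expressed. Psmb8 lay close enough to the limit that it passed it in 1 heart with background at the 90th percentile, whereas Psmb9 passed it in no heart under any setting tried.

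**Figure D2:**
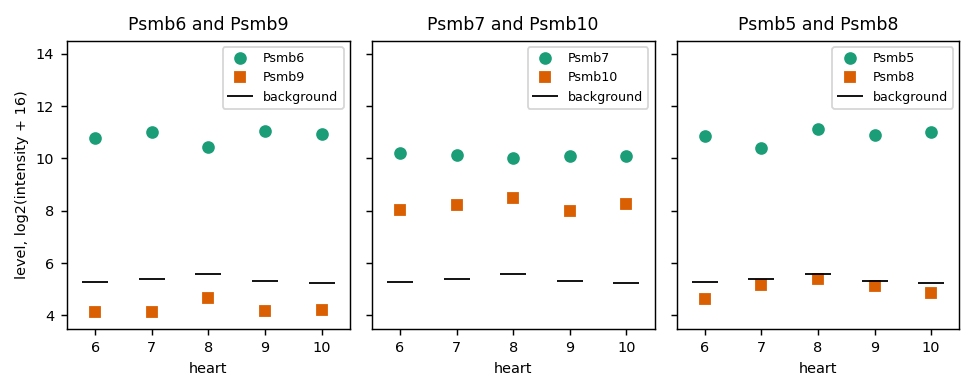
Level of the 3 standard active-site subunits (circles) and of the immunoproteasome subunit that replaces each (squares) in hearts 6 to 10, as log2(intensity + 16), with the background of each array as a bar. Psmb10 lies above the bar in all 5 hearts, Psmb8 and Psmb9 below it; heights of different genes are not comparable.

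Genes that work with the immunoproteasome were detected in part. Of 24 measured genes of MHC class I presentation and the interferon response, 11 were detected, or 45.8%, close to the 50.7% of all genes, and 6 were above background in no heart. Tap1 (4.62 ± 0.43) and Tap2 (4.31 ± 0.35), the neighbours of Psmb8 and Psmb9, were among those 6, whereas Tapbp, which links the transporter to class I molecules, was detected at 8.15 ± 0.25. The class I light chain B2m had 9.78, 8.97, 9.58, 9.53 and 9.93, and was detected in all hearts. Of 15 measured leukocyte markers, cells in which the immunoproteasome is standard, 8 were detected and 5 were above background in no heart. Among them Csf1r of macrophages had 8.35 ± 0.57, Cd68 5.39 ± 0.05 and the pan-leukocyte gene Ptprc 4.76 ± 0.27 (SD, n = 5). Their summed intensity ran from 822.7 in heart 6 to 1364.5 in heart 9. Psmb10 had 8.04 in heart 6 and 8.01 in heart 9, both below its levels in the other hearts. The part of leukocytes in the Psmb10 signal was not tested.

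With 1 probe set per gene, the alpha rings had the lowest median SD of the parts of the complex, a difference that was not tested. All 7 detected alpha genes had an SD below the SD that limma's trend gives for genes of their level, and their median SD was 0.12. Psma3 varied least, with 10.83, 10.92, 10.69, 10.74 and 10.75. Psma4 varied most, with 9.45, 9.03, 8.97, 9.06 and 9.29, and was highest in heart 6. Psma7 had 10.54, 11.00, 10.60, 10.80 and 10.71. The remaining detected alpha genes, Psma1, Psma2, Psma5 and Psma6, had SDs from 0.11 to 0.14. A second detected Psma5 probe set (1424681_a_at) had an SD of 0.69. Psma8, which replaces Psma7 in the proteasome of male germ cells, had 5.04, 5.19, 4.68, 5.28 and 5.33 and exceeded background by 0.069 in heart 10 only. On a list of 8 germ cell genes that includes Psma8, 0 were detected and 6 were above background in no heart, Sycp1 (4.41 ± 0.34) among them. Sycp3 (5.50 ± 0.22) was above background in 4 hearts.

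The beta subunits without an active site were all detected. Psmb1 had 10.64, 10.59, 10.34, 10.54 and 10.72. Psmb3 had 10.61, 10.80, 10.50, 11.13 and 10.86 and was highest in heart 9. Psmb2 had 7.63, 6.78, 7.46, 7.55 and 7.46. Heart 7 was thus the low heart for Psmb2, as it was for Psmb5. Psmb4 had an SD of 0.18.

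Most ATPases of the cap were highest in heart 7, as were genes of some other parts. Of the 6 genes, 5 were highest in heart 7, against 30.2% of all detected genes, and all 6 were above their own mean there. Psmc5 had 8.50, 9.24, 8.45, 8.78 and 8.35. Psmc2 had 10.66, 10.99, 10.41, 10.48 and 10.48. Psmc3, named here after its values were seen, had 10.86, 11.40, 10.91, 11.00 and 10.90. In each of these genes heart 7 stood above the range of the other 4 hearts. Psmc6 varied least, with 10.42, 10.70, 10.51, 10.50 and 10.47, and Psmc1 was also highest in heart 7 (10.71 against 10.26 to 10.51). Psmc4 was the exception, with 10.25, 10.52, 10.44, 10.63 and 10.49, highest in heart 9, although its second probe set was highest in heart 7. The other detected Psmc6 probe set was highest in heart 6, and with a gene's probe sets averaged 4 of the 6 genes were highest in heart 7. The median deviation of the 6 genes from their own means was 0.33 in heart 7, and from -0.16 to -0.017 in the others. Over all detected genes the heart 7 median was 0.013. It was 0.34 for the cap chaperones, where 2 of 3 genes were highest in heart 7. For the base subunits other than ATPases it was 0.23, with 2 of 3 highest there. Activators and inhibitors had 0.14, with 3 of 4 highest there. The ATPase deviation lay between 0.26 and 0.33 under the other scalings, offsets and probe set choices and without any other heart. The other parts were not followed separately through these choices. Across all genes, limma's variance test passed none of the 6, with a lowest adjusted p of 0.960. Heart 7 also had the highest summed intensity of 10 erythroid genes, 27186 against a lowest of 17479 and a median of 17960, and the highest Gapdh ratio given above. Erythroid signal was not high in heart 7 alone. Hbb-y was higher in heart 8 (13.45) than in heart 7 (13.12), and Hba-x was close in both (12.81 and 12.96). Alas2 and Slc4a1 were higher in heart 7 (11.34 and 11.00) than in heart 8 (10.50 and 9.61). The ATPase median deviation in heart 8 was -0.068. The part of erythroid signal and of the Gapdh ratio in the ATPase values was not tested.

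The rest of the cap followed heart 7 less closely. Psmd1, a scaffold of the base, had 10.31, 10.38, 9.63, 10.08 and 10.37. Psmd2, which binds shuttle factors, had 9.78, 9.57, 9.49, 9.81 and 9.55. Psmd4, a ubiquitin receptor, had 10.04, 10.44, 10.08, 10.19 and 10.05. Psmd1 was set apart by its low heart 8 and Psmd4, in its representative probe set, by its high heart 7. The other detected Psmd4 probe set (1425859_a_at) was highest in heart 6, at 8.47 against 8.23 in heart 7. The lid held both the widest and the narrowest of these genes. Psmd8 had 9.95, 10.22, 9.39, 10.03 and 10.07, with heart 8 low as for Psmd1. Psmd13 had 8.58, 9.30, 9.09, 8.77 and 8.82. Psmd14, the deubiquitinase that removes the ubiquitin chain as a substrate enters, had 10.15, 10.11, 10.27, 10.17 and 10.25, the smallest SD of all 41 detected genes at 0.069. The other lid genes, Psmd3, Psmd6, Psmd7, Psmd11 and Psmd12, had SDs from 0.088 to 0.20. Over the 8 lid genes the median deviation was positive for heart 7 (0.12) and heart 8 (0.10) and negative for heart 6 (-0.11).

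The cap chaperones Psmd5, Psmd9 and Psmd10, which assemble the ATPase base and are not part of the finished cap, were detected. Psmd9 had 5.91, 6.79, 6.41, 6.52 and 5.82, the largest SD of the detected genes at 0.41 and a smallest margin over background of 0.57. Psmd5 had 7.91, 8.13, 7.60, 7.87 and 7.46. Psmd10, also known as gankyrin, had 7.65, 7.90, 7.37, 8.03 and 7.55. All 3 were above their own mean in heart 7 and heart 9 and below it in heart 10.

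Among the alternative activators, Psme1, a subunit of the activator induced by interferon together with Psmb8 and Psmb9, was detected in every heart. Its levels were 10.62, 10.80, 10.58, 10.63 and 10.72, with an SD of 0.090. Psme3, the nuclear form, had 8.30, 8.92, 8.83, 8.60 and 8.88 and was low in heart 6. Another detected Psme3 probe set (1418078_at) had 5.97, 5.77, 7.03, 6.09 and 6.45, lowest in heart 7 and highest in heart 8. Psme4, an activator with known roles in spermatogenesis and DNA repair, had 8.80, 8.41, 8.51, 8.51 and 8.76. The inhibitor Psmf1 had 6.26, 6.33, 6.00, 6.08 and 6.18, with a smallest margin of 0.41. Psme1 thus lay far above background in hearts where Psmb8 and Psmb9 did not pass it. The 2 genes taken by name only were also detected. Psmc3ip, a meiotic recombination factor, had 7.48, 7.43, 7.37, 7.27 and 6.97. Psme3ip1 had 6.82, 6.61, 6.25, 6.73 and 6.50.

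**Figure D3:**
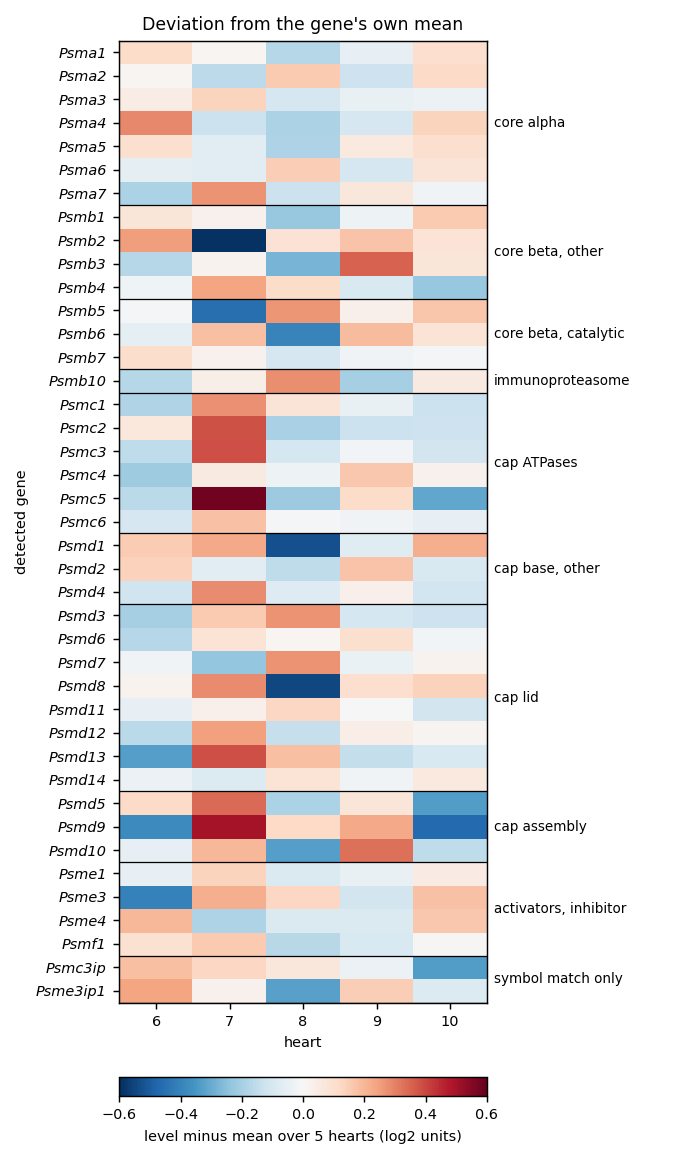
Deviation of each of the 41 detected genes from its own mean over 5 hearts, in log2 units, with hearts as columns and genes grouped by place in the proteasome; red is higher and blue lower. The heart 7 column is red in all 6 ATPases and all 3 assembly chaperones, and dark blue in Psmb2 and Psmb5.

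Across the 41 detected genes, heart 7 was the highest heart for 18 (43.9%, against 30.2% of all detected genes) and heart 8 the lowest for 16 (39.0% against 21.8%). The background and control values of heart 8 given above stand beside this, and their part in it was not tested. Heart 10 was the highest for 1 gene, Psmb1 (2.44% against 14.2%). The other Psmb1 probe sets, 1420053_at (7.53) and 1420052_x_at (5.32), were lowest in heart 10. Over the 62 detected probe sets, hearts 6 to 10 had median deviations of -0.015, 0.059, -0.028, -0.030 and -0.019. With 1 probe set per gene it was 0.13 in heart 7 and -0.089 in heart 8. The corresponding medians over all detected probe sets lay between 0.0035 and 0.0091. These profiles describe the arrays. They were not tested, since the genes share their 5 hearts.

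Proteasome genes had smaller SDs between hearts, at the median, than detected genes of similar level. The median SD of the 41 detected genes was 0.18 (quartiles 0.13 and 0.24), against 0.24 over 6289 detected genes (0.17 and 0.33). At matched levels, the 1315 detected genes with means between the proteasome genes' own quartiles (8.60 to 10.52) had a median SD of 0.22, against 0.16 for the 21 proteasome genes there. The SD was below that of limma's trend for 29 of the 41, or 70.7%, against 56.5% of all detected genes, and for 45 of 62 probe sets, or 72.6%, against 57.5%. Without heart 7 the median SD over probe sets fell to 0.16, against 0.21 for all detected probe sets. By limma's variance test, 0 of 80 probe sets had a variance above that of probe sets of similar level at an adjusted p under 0.05, where 9 of 20380 passed (0.0442%). With 1 probe set per gene 0 of 44 passed, where 5 of 12393 did (0.0403%). At an unadjusted p under 0.05 there were 4 of 80 probe sets, against 4.33% of all, and 0 of 44 genes, against 4.45% of all genes.

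**Figure D4:**
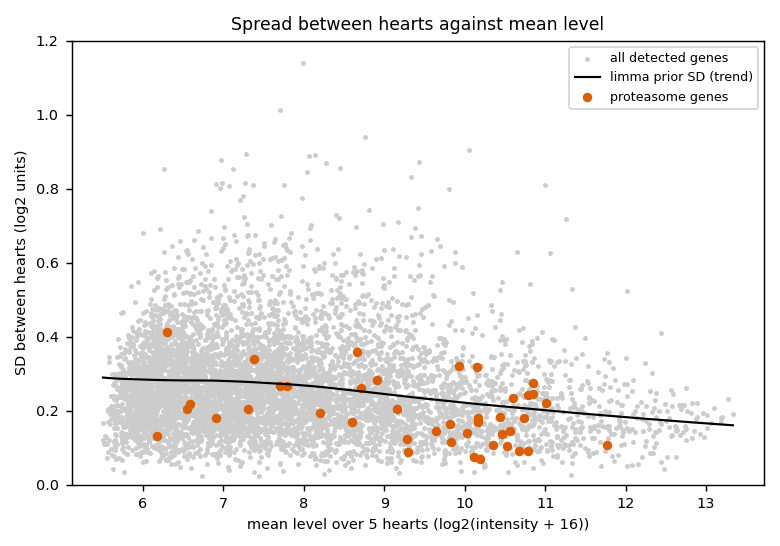
SD between hearts against mean level for 6289 detected genes (grey), with the 41 detected proteasome genes in orange and the SD expected at each level by limma's trend as a line; 2 genes above an SD of 1.2 are outside the axis. Of the orange points, 29 lie below the line.

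Those 4 probe sets belonged to genes with further probe sets that were steadier. A Psma5 probe set (1424681_a_at) had 9.37, 8.92, 7.70, 9.05 and 9.37, with heart 8 low, while the representative one had 9.38, 9.22, 9.10, 9.34 and 9.38. The variance test gave the first an unadjusted p of 0.00227 and an adjusted p of 0.505 with limma, the lowest of the 80. A Psmb3 probe set (1417052_at) had 8.22, 6.67, 7.67, 7.66 and 7.62, whereas the other, given above, was not lowest in heart 7. For Psmc6, 1417770_s_at had 7.47, 6.89, 6.51, 7.21 and 6.12, a range of 1.35 against 0.28 for the representative. For Psmd4, 1451725_a_at had 6.82, 5.78, 5.57, 5.07 and 5.82, a range of 1.75, and exceeded the background of probe sets in 4 hearts. In each gene the representative probe set had a narrower range than the one picked here. The 4 were picked for their spread, so a steadier representative follows largely from that choice.

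**Figure D5:**
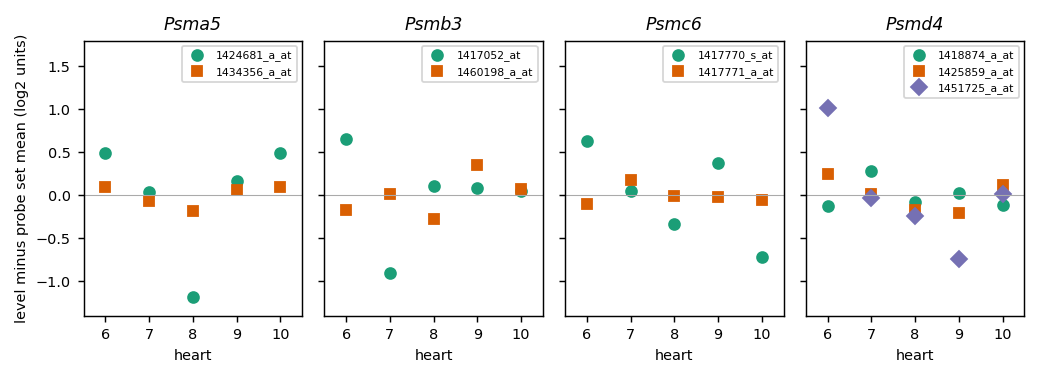
Deviation of each probe set from its own mean in hearts 6 to 10, in log2 units, for the 4 genes that held a probe set with an unadjusted variance p under 0.05. For Psma5, Psmb3 and Psmc6 the detected probe sets are shown and for Psmd4 all 3; in each panel 1 probe set spans more than 1.3 units and the others at most 0.63.

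Of 20 genes with several probe sets, 9 had all of them detected and 11 some. Psmd11 had 6 probe sets, of which 4 were detected and 1 was above background in no heart. Psma1 had 3, of which 2 were above background in no heart. Of 16 genes with several detected probe sets, these shared the highest heart in 3 (18.8%) and the lowest heart in 3 (18.8%). Of 2047 genes of any kind with several detected probe sets, the shares were 25.7% and 24.9%. Psmc2 was the one of the 16 that shared both, with its second probe set at 10.38, 10.79, 10.28, 10.47 and 10.37, again highest in heart 7 and lowest in heart 8.

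Genes that build, load and regulate the proteasome were measured too, and the counts stand beside the 50.7% of all genes that were detected. All 13 measured genes of core assembly and cap-bound proteins were detected, including the core chaperones Psmg1 (7.59 ± 0.16), Psmg2 (7.48 ± 0.18) and Psmg3 (6.98 ± 0.25). All 10 measured genes of a list of ubiquitin, activating enzymes and carriers of tagged proteins were detected, including Uba3 (8.00 ± 0.29), which activates the ubiquitin-like NEDD8, the shuttle factor Rad23b (8.51 ± 0.50) and Ubqln1 (7.64 ± 0.24). Of 10 genes around the transcription factors Nfe2l1 and Nfe2l2, which drive proteasome and antioxidant genes, 7 were detected and 2 were above background in no heart. Nfe2l1 had 6.78, 5.75, 6.52, 6.71 and 6.67. The repressor Keap1 was detected at 7.30 ± 0.32 (SD, n = 5), while Nfe2l2 (6.02 ± 0.33) was above background in 4 hearts and so not detected. Heart 7 was the low heart for Nfe2l1. None of the genes on these 3 lists had an adjusted p under 0.05 in limma's variance test, and 1, from the ubiquitin list, had an unadjusted p under 0.05. The markers of thymus epithelium, where the related subunit Psmb11 is used, had 1 of 5 detected, Ccl25 at 6.53 ± 0.26, while Foxn1 (4.52 ± 0.32) and Aire (4.32 ± 0.36) were not. Of 12 endothelial genes 9 were detected, including Kdr (6.46 ± 0.31) but not Pecam1 (4.89 ± 0.42) or Cdh5 (4.83 ± 0.33). Of 10 erythroid genes 7 were detected, with Alas2 at 10.05 ± 0.91, Slc4a1 at 9.88 ± 0.63 and Klf1 at 6.00 ± 0.68.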

How the data were processed

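The authors deposited 1 linear intensity per probe set and array, made, per the submitters' processing notes, with GCOS (version and algorithm not given in the sources used here). Per the labels, 10 ng of RNA of each heart was amplified before labelling, which can raise noise for weak transcripts. The deposited arrays shared a 2% trimmed mean of 150.1, so differences in total signal are removed.

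Of 22690 probe sets, 20380 with 1 gene symbol and no control role were used, and 20351 of these were found by Entrez number in the GRCm38.p6 gene table. Values were scaled to a common trimmed mean and analysed as log2(intensity + 16), an offset that compresses differences of weak genes. Background was set by 102 off-tissue probe sets for counts over probe sets, and by their 72 genes for counts over genes. With 1 group, the test across features was limma's variance test (limma 3.58.1, R 4.3.3): each variance (4 degrees of freedom) against a robust prior with a trend on level (12.57 degrees of freedom for probe sets, 12.06 for genes), upper tail, Benjamini-Hochberg over all features, threshold 0.05. It was tried on simulated independent genes drawn from the fitted trend, some with 1 heart shifted. That simulation held no shift shared by a whole array, so it cannot show how the test behaves under one. The test measures only the spread between these hearts.

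The genes, lists and tests were chosen with earlier results of these data known. All proteasome genes could be named. Values in every heart were given for active-site subunits, Psma8, activators, the 2 widest and the narrowest genes of each class and undetected genes. Of companion lists, the first 3 measured genes were named. Any further gene was named with its values in view. Precision is limited by the number of arrays.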

Additional observations from a re-analysis of the deposited data

Results flagged for a closer look

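A heart lying far from the rest was sought in 114 probe sets, genes and array-wide measures, of which 80 were proteasome probe sets. The gap of the extreme heart to its nearest neighbour, divided by the whole range, had to exceed Dixon's critical value. Chance gives about 1 in 20. Among proteasome probe sets 6 passed, 2 in heart 7 and 4 in heart 8. In heart 7, Psmc3 was high at 11.40 against 10.86 to 11.00, and Psmb2 was low at 6.78 against 7.46 to 7.63. In heart 8, the Psma5 probe set 1424681_a_at was low at 7.70 against 8.92 to 9.37. A Psmd11 probe set below background (1431013_at) was also low there, at 4.06 against 4.82 to 5.07, and the second Psmb4 probe set (1451205_at) was high at 10.20 against 9.89 to 9.97. Psmb9 was high in heart 8 at 4.68 against 4.13 to 4.19, still below background.

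Outside the proteasome, Tap2 (4.94 against 4.13 to 4.18) and Aire (4.95 against 4.05 to 4.30) were high in heart 8, both below background. In heart 7, Nfe2l1 was low (5.75 against 6.52 to 6.78), as was Pecam1 (4.15 against 4.95 to 5.19), and Slc4a1 was high (11.00 against 9.48 to 9.68). Myh7 was low in heart 6 (12.32 against 12.74 to 12.87).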

How the results depend on the processing

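The count of 41 detected genes was the same under all alternatives tried except background at the 99th percentile (39), and the count of 62 probe sets ranged from 53, without probe sets of type _x_at and _s_at, to 65, when 3 hearts sufficed. Psma8 exceeded background in 3 hearts with background at the 90th percentile or a gene's probe sets averaged, 2 without _x_at and _s_at probe sets, and none at the 99th percentile or without heart 10. Psmb8 did so in 1 heart at the 90th percentile and 2 with probe sets averaged. Psma8 and Psmb8 each rest on a single probe set, so averaging changed the background and not their levels. No proteasome probe set passed limma's variance test under any alternative, the lowest adjusted p running from 0.126 (without heart 7) to 0.955 (without heart 10). Over all probe sets the calls, 9 as reported, ranged from 0 with detected probe sets only to 17 at an offset of 1, and were 16 without heart 7, 4 without heart 8 and 6 without heart 10. They were 5 without _x_at and _s_at probe sets, 2 without a robust prior and 1 without its trend. With 1 probe set per gene the calls, 5 as reported, ranged from 1 to 9, the latter without heart 7. The median deviation with 1 probe set per gene was 0.13 in heart 7 and -0.089 in heart 8. Over the detected probe sets, where it was 0.059 in heart 7 and -0.028 in heart 8, leaving out each other heart in turn gave 0.062 to 0.10 for heart 7 and -0.066 to -0.0094 for heart 8. The median SD stayed below that of all detected probe sets, from 0.16 to 0.21. The cause of these shifts was not tested. No paired analysis was possible because there is 1 group.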
